A study of Mus musculus with 8 samples.

Results

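The GIMAP genes encode GTPases of immunity-associated proteins. Genes were chosen by name, as the 8 mouse GIMAP genes Gimap1, Gimap3, Gimap4, Gimap5, Gimap6, Gimap7, Gimap8 and Gimap9, out of 22180 genes that had a probe set of their own. They were read by 9 of 33649 probe sets, of which Gimap1 had 2, and the brighter one stood for it. All 8 passed the filter on low signal, as did 17576 genes in all. The study profiled 3 populations along early blood formation, on 8 microarrays in all. The cells came from marrow of C57/Bl6 mice at 8 weeks of age, and the sort kept those with Sca1 and Kit and without lineage markers. LT-HSC, the long-term stem cells, had the gate CD150+ CD48- CD34- and 2 arrays, replicates 1 and 3. ST-HSC, the short-term stem cells, differed from it by being CD34+ and had 3 arrays. MPP, the multipotent progenitors, had the gate CD34+ CD48+ CD150- and 3 arrays. The labels conflict on treatment, since the descriptions give none while the shared protocol gives 2 hours of DMSO, then passage through primary recipients for a year and secondary recipients for 3 months. Whether the arrays of a population stem from different mice is not given, and the spread behind each p-value may therefore be technical.

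GIMAP proteins bind guanine nucleotides and sit on or near membranes of organelles such as the endoplasmic reticulum, lysosome and Golgi. They are best known in lymphocytes, where several members control survival, and in mice loss of Gimap5 costs T cells and also disturbs blood stem cells. The genes lie side by side in a single cluster on chromosome 6, which in the RefSeq annotation of GRCm38.p6 ran in the order Gimap8, Gimap9, Gimap4, Gimap6, Gimap7, Gimap1, Gimap5 and Gimap3 with 0 other protein-coding genes between them.

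Promoter windows are shown first for the genes whose levels the results turn on, Gimap3 and Gimap4 with their highest means in LT-HSC, and Gimap6 and Gimap7 with the largest differences between MPP and ST-HSC. Each runs 5′ to 3′ along the gene's strand, from 250 bases before the RefSeq start site of build GRCm38.p6 to 50 bases after it. Capitals mark the letters of motifs searched on both strands.
Gimap3, chr6:48770802-48771101, minus strand: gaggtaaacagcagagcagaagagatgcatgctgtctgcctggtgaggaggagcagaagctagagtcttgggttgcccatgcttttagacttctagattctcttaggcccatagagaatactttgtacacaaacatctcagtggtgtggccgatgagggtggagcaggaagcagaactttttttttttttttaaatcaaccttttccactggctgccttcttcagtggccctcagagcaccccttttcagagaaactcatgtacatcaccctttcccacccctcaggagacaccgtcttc
Gimap4, chr6:48684328-48684627, plus strand: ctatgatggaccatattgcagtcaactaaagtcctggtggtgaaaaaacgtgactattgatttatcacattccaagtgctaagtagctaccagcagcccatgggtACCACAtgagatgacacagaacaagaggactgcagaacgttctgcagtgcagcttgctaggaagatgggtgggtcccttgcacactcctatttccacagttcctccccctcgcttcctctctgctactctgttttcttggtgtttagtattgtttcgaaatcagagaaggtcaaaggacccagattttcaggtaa
Gimap6, chr6:48708195-48708494, minus strand: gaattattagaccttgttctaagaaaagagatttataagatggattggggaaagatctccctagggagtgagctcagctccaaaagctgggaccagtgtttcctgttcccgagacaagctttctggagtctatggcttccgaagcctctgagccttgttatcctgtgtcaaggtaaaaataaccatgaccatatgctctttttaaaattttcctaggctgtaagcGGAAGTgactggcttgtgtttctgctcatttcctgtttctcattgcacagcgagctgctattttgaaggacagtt
Gimap7, chr6:48718371-48718670, plus strand: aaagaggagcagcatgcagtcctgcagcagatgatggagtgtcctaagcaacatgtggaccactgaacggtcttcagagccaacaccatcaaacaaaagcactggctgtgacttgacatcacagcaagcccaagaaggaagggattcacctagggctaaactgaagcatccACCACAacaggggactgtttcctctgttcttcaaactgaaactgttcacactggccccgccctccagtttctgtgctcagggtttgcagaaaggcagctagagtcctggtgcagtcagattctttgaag

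The search covered motifs of transcription factors that act in blood cells. For RUNX factors the letters were TGTGGT. For ETS factors they were GGAAGT. For GATA factors the search used AGATAA. For E-box proteins it used CAGGTG. The RUNX letters stood 145 bases before the start of Gimap4 and 79 bases before that of Gimap7, in both as the reverse complement ACCACA. The ETS letters stood 25 bases before the start of Gimap6. The Gimap3 window held none of the 4 motifs. Over 9 windows of the 8 genes, since Gimap8 had 2 start sites, RUNX letters were in 3, ETS letters in 4, E-box letters in 1 and GATA letters in 0. Among 32851 windows of the same length the shares were 16.8%, 23.8%, 20.2% and 11.2%. No matches of different motifs overlapped in the GIMAP windows. Of the genes with RUNX letters, Gimap1 and Gimap7 had their lowest mean in ST-HSC and highest in MPP, and Gimap4 its lowest in ST-HSC and highest in LT-HSC. Without RUNX letters, Gimap6 and Gimap8 had the same order as Gimap1 and Gimap7, and Gimap5 that of Gimap4. A link between motifs and levels was not tested.

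Array medians lay between 4.95 and 5.22 on the log2 scale of the RMA signal used throughout. The stem cell arrays numbered 1, of LT-HSC and of ST-HSC, were the least like the others, with median correlations of 0.956 and 0.968, against 0.976 to 0.985 for the other 6. The mean of 14 granulocyte and monocyte markers lay above the genes' own means in the replicate 1 arrays, by 0.93 in LT-HSC, 1.26 in ST-HSC and 0.68 in MPP, and below them in the other 5, by -0.98 to -0.29, and their part in the GIMAP values was not tested. Slamf1, the CD150 gene, followed the gate, at 7.77 and 7.78 in LT-HSC, 7.32, 7.25 and 7.46 in ST-HSC and 4.93, 5.46 and 4.77 in MPP. Cd34 did not in LT-HSC replicate 3, which was gated CD34-negative but read 10.20, above the ST-HSC values of 9.55, 10.15 and 10.07, whereas LT-HSC replicate 1 read 8.50. Cd48, which gates MPP as positive and both stem cell populations as negative, read 5.92 and 6.63 in LT-HSC, 7.49, 6.51 and 6.57 in ST-HSC and 7.84, 6.65 and 6.96 in MPP. ST-HSC replicate 1, the lowest array for 5 GIMAP genes, thus exceeded MPP replicates 2 and 3. Values that moved most without an LT-HSC array or without ST-HSC replicate 1 are given beside the result.

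Across the family, ST-HSC had the lowest mean for 6 of the 8 genes. Gimap3 was lowest in MPP and Gimap9 in LT-HSC. LT-HSC had the highest mean for Gimap3, Gimap4 and Gimap5, and MPP for the other 5. As a mean of each gene's deviation from its own average, the family stood at -0.04 and 0.48 in the LT-HSC arrays, at -0.49, -0.10 and -0.27 in ST-HSC and at 0.26, 0.07 and 0.08 in MPP. All ST-HSC arrays lay below all LT-HSC and MPP arrays by this measure, while the LT-HSC arrays lay on both sides of MPP. In bulk samples a change in the number of cells that carry an RNA and a change of RNA per cell cannot be told apart. Gene means over all arrays ran from 5.10 for Gimap3 to 8.94 for Gimap6, which on probe sets is no order of RNA amounts.

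**Figure D1:**
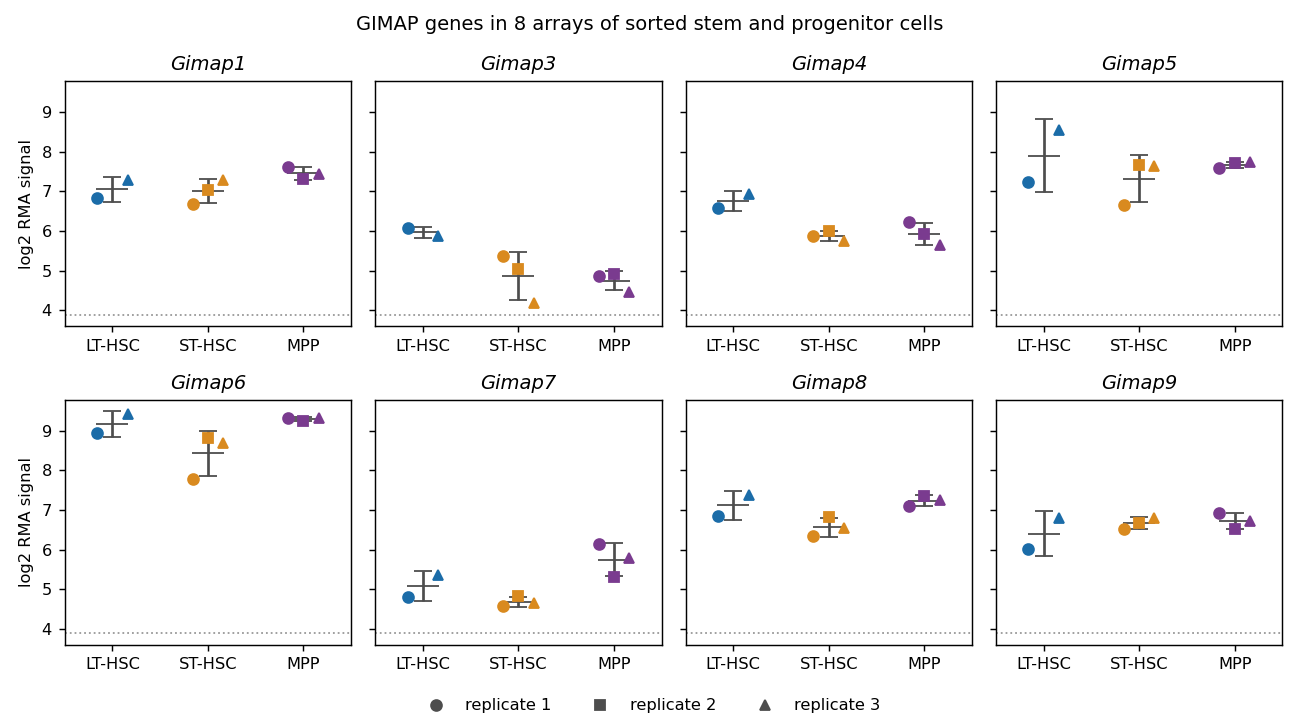
Log2 RMA signal (y axis) of the 8 GIMAP genes on each array, by population on the x axis, with a marker per array, a bar at the mean, SD whiskers and the low-signal filter of 3.88 as a dotted line. Gimap3 and Gimap4 sit highest in LT-HSC, and Gimap6, Gimap7 and Gimap8 sit higher on all 3 MPP arrays than on any ST-HSC array.

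Gimap3 and Gimap4 shared one pattern, higher in LT-HSC than in either other population. Gimap3, a close paralogue of Gimap5 that in mice influences the sorting of mitochondrial DNA in leukocytes, read 6.07 and 5.87 in LT-HSC, 5.36, 5.04 and 4.19 in ST-HSC and 4.87, 4.91 and 4.47 in MPP. Both LT-HSC arrays lay above every other array, and ST-HSC and MPP overlapped. The log2 difference of ST-HSC from LT-HSC was -1.10 (limma adjusted p = 0.168, SE 0.30), a 2.15-fold lower mean in ST-HSC. For MPP minus LT-HSC it was -1.22 (limma adjusted p = 0.194, SE 0.30), a 2.33-fold lower mean in MPP.

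Gimap4, which in mouse T cells speeds the course of programmed death, read 6.59 and 6.93 in LT-HSC, 5.87, 6.0 and 5.75 in ST-HSC and 6.22, 5.92 and 5.65 in MPP. Again both LT-HSC arrays exceeded all 6 others. Its difference from LT-HSC was -0.89 in ST-HSC (limma adjusted p = 0.0921, SE 0.21) and -0.83 in MPP (limma adjusted p = 0.197, SE 0.21). Neither gene passed the threshold of 0.05 over all genes, although the 95% intervals of all 4 differences lay below 0, the nearest bound being -0.37. With either LT-HSC array left out, these differences lay between -1.32 and -1.0 for Gimap3 and between -1.06 and -0.66 for Gimap4. Without ST-HSC replicate 3, the lowest array for Gimap3, its ST-HSC minus LT-HSC difference shrank to -0.77. MPP minus ST-HSC was -0.12 for Gimap3 (95% interval -0.71 to 0.48) and 0.06 for Gimap4 (95% interval -0.35 to 0.47).

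Gimap6, Gimap7 and Gimap8 were lower in ST-HSC than in MPP on every array. Gimap7, whose human counterpart is known as a GTPase that activates another GIMAP protein on contact, read 4.81 and 5.34 in LT-HSC, 4.57, 4.82 and 4.64 in ST-HSC and 6.15, 5.31 and 5.77 in MPP. The MPP arrays cleared all ST-HSC arrays, while MPP replicate 2 lay just under LT-HSC replicate 3. The MPP mean of 5.74 ± 0.42 (SD, n = 3) was 2.09-fold above the ST-HSC mean of 4.68 ± 0.13 (SD, n = 3), a log2 difference of 1.06 (SE 0.23, 95% interval 0.57 to 1.56, limma adjusted p = 0.106).

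Arrays of ST-HSC and MPP with the same replicate number deviated together, but only weakly (r = 0.15, 0.23 and 0.21). The labels do not state pairing, so the pairs were an assumption drawn from these same data. With the number as a block over these 6 arrays, Gimap7 passed as higher in MPP (log2 difference 1.06, limma adjusted p = 0.0293), as it did with the block over all 8 arrays (limma adjusted p = 0.0242). Gimap7 was higher in MPP in 3 of 3 such pairs, which any pairing would give, since its MPP and ST-HSC arrays do not overlap. The block also raised the calls over all genes to 289 with 6 arrays, against 34 without it. The Gimap7 difference between MPP and LT-HSC was 0.67 (limma adjusted p = 0.406, SE 0.25), or 0.40 without LT-HSC replicate 1 and 0.94 without LT-HSC replicate 3. Between ST-HSC and LT-HSC, Gimap7 differed by -0.40, or by -0.66 and -0.13 with the same arrays left out.

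Gimap6, a member that binds autophagy proteins of the GABARAP group and that mouse T cells need to survive, read 8.94 and 9.41 in LT-HSC, 7.79, 8.81 and 8.68 in ST-HSC and 9.32, 9.24 and 9.31 in MPP. The MPP arrays lay close together, and ST-HSC replicate 1 lay well below all others. The MPP minus ST-HSC difference was 0.87 (limma adjusted p = 0.28, SE 0.25), or 0.55 without ST-HSC replicate 1 (limma adjusted p = 0.58). ST-HSC minus LT-HSC was -0.75 (limma adjusted p = 0.355, SE 0.28), with no overlap. It was -0.43 without ST-HSC replicate 1, -0.98 without LT-HSC replicate 1 and -0.52 without LT-HSC replicate 3.

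Gimap8, the longest member with several GTPase domains in its protein, read 6.86 and 7.38 in LT-HSC, 6.33, 6.81 and 6.54 in ST-HSC and 7.09, 7.35 and 7.26 in MPP. All ST-HSC arrays lay below all others, ST-HSC replicate 2 only just below LT-HSC replicate 1. The MPP minus ST-HSC difference was 0.67 (limma adjusted p = 0.263, SE 0.19) and the ST-HSC minus LT-HSC difference -0.55 (limma adjusted p = 0.369, SE 0.21). The second of these was -0.81 without LT-HSC replicate 1 and -0.29 without LT-HSC replicate 3. MPP minus LT-HSC was near 0 for Gimap6 and Gimap8, at 0.12 for each, with 95% intervals of -0.51 to 0.74 and -0.35 to 0.58. Both of these turned negative without LT-HSC replicate 1, to -0.12 and -0.14, and with quantile normalization, to -0.02 for each.

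Gimap5, Gimap1 and Gimap9 showed weaker or no separation. Gimap5, a lysosomal protein needed for the survival of T cells and blood stem cells in mice, read 7.25 and 8.56 in LT-HSC, 6.65, 7.68 and 7.65 in ST-HSC and 7.59, 7.71 and 7.73 in MPP. The 2 LT-HSC arrays differed by more than any pair of MPP arrays and enclosed all of them. The difference of ST-HSC from LT-HSC, -0.58 (95% interval -1.41 to 0.25, limma adjusted p = 0.608), became -1.23 without LT-HSC replicate 1 and 0.07 without LT-HSC replicate 3. Leaving out ST-HSC replicate 1 gave -0.24. Its MPP minus ST-HSC difference of 0.35 became 0.01 without ST-HSC replicate 1. The MPP minus LT-HSC difference of -0.23 became -0.88 without LT-HSC replicate 1 and 0.43 without LT-HSC replicate 3, so its direction depended on which LT-HSC array was used. Gimap3 was highest on LT-HSC replicate 1, where Gimap5 was second lowest. Gimap3 and Gimap5 are similar in sequence, and whether their probes tell the transcripts apart was not tested.

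Gimap1, which in mice mature T and B cells need to persist, read 6.82 and 7.28 in LT-HSC, 6.68, 7.05 and 7.30 in ST-HSC and 7.63, 7.30 and 7.45 in MPP on its brighter probe set. Every MPP array exceeded every array of both other populations, narrowly over LT-HSC replicate 3 and ST-HSC replicate 3. The differences were 0.41 for MPP minus LT-HSC (limma adjusted p = 0.532, SE 0.22) and 0.45 for MPP minus ST-HSC (limma adjusted p = 0.708, SE 0.20). The first became 0.18 without LT-HSC replicate 1 and 0.64 without LT-HSC replicate 3. The second became 0.29 without ST-HSC replicate 1.

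The dimmer Gimap1 probe set read 4.35 and 4.44 in LT-HSC, 3.87, 3.52 and 3.75 in ST-HSC and 4.15, 4.28 and 4.02 in MPP. It placed ST-HSC below both other populations without overlap, with MPP 0.44 above ST-HSC and a difference of ST-HSC from LT-HSC of -0.68. All its ST-HSC readings lay below the low-signal filter of 3.88. The probe sets gave almost the same MPP minus ST-HSC difference but disagreed on MPP minus LT-HSC, which was -0.25 on the dimmer one. Gimap9 read 6.0 and 6.80 in LT-HSC, 6.52, 6.68 and 6.80 in ST-HSC and 6.93, 6.53 and 6.72 in MPP. Its populations overlapped in all 3 comparisons, with differences of 0.27, 0.33 and 0.06 for ST-HSC minus LT-HSC, MPP minus LT-HSC and MPP minus ST-HSC. The first 2 turned to -0.13 and -0.07 without LT-HSC replicate 1.

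Read by comparison, 7 of the 8 genes were lower in ST-HSC than in LT-HSC by mean, with a median log2 difference of -0.57, beside 0.02 over all 17576 genes, of which 48% were lower. Without overlap 4 were lower (Gimap3, Gimap4, Gimap6 and Gimap8) and 0 higher, beside a background of 9.5% of all genes lower without overlap and 23.3% in either direction. The call at a limma adjusted p under 0.05 went to 0 of 8, beside 0.933% of all genes. An unadjusted limma p under 0.05 was reached by 4 of 8, beside 1943 of all 17576 genes. The 7 became 6 with median centring and stayed 7 with quantile normalization. Without replicate 1 of both LT-HSC and ST-HSC, all 8 were negative, with a median of -0.68. Without LT-HSC replicate 3, 5 were negative, with a median of -0.21.

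For MPP minus ST-HSC, 7 of 8 were higher by mean, with a median of 0.40, beside 0.01 over all genes, of which 51.7% were higher. Without overlap 4 were higher (Gimap1, Gimap6, Gimap7 and Gimap8) and 0 lower, beside a background of 7.75% higher and 14.2% in either direction. An unadjusted limma p under 0.05 was reached by 4 of 8, beside 1211 of all 17576 genes. Limma called 0 of 8, where 0.193% of all genes were called. With the replicate number as a block over the ST-HSC and MPP arrays, it called 1 of 8 (Gimap7) and 289 of 17576 genes. Gimap3 was the single lower gene with quantile normalization and with median centring too. Without both LT-HSC and ST-HSC replicate 1 the count was again 7 and the median 0.21, but Gimap3 was then higher (0.13) and Gimap9 lower (-0.01). These comparisons share the ST-HSC arrays, so their opposite signs are not independent.

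MPP and LT-HSC differed in no common direction. Of the 8 genes 5 were higher and 3 lower in MPP by mean, with a median of 0.12 beside 0.06 over all genes, of which 57.2% were higher. Without overlap Gimap1 was higher and Gimap3 and Gimap4 lower, 3 of 8 beside a background of 14.1% higher, 10.5% lower and 24.7% in either direction. Limma called 0 of 8 and 0.125% of all genes, while 3 of 8 and 1856 of all 17576 genes had an unadjusted p under 0.05. With quantile normalization 3 of 8 were higher. Without LT-HSC replicate 1 there were 2, with a median of -0.13, and without LT-HSC replicate 3 there were 6, with a median of 0.40. The F test over the 3 populations called 0 of 8, with limma adjusted p from 0.12 for Gimap7 to 0.785 for Gimap9, and called 0.905% of all genes.

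**Figure D2:**
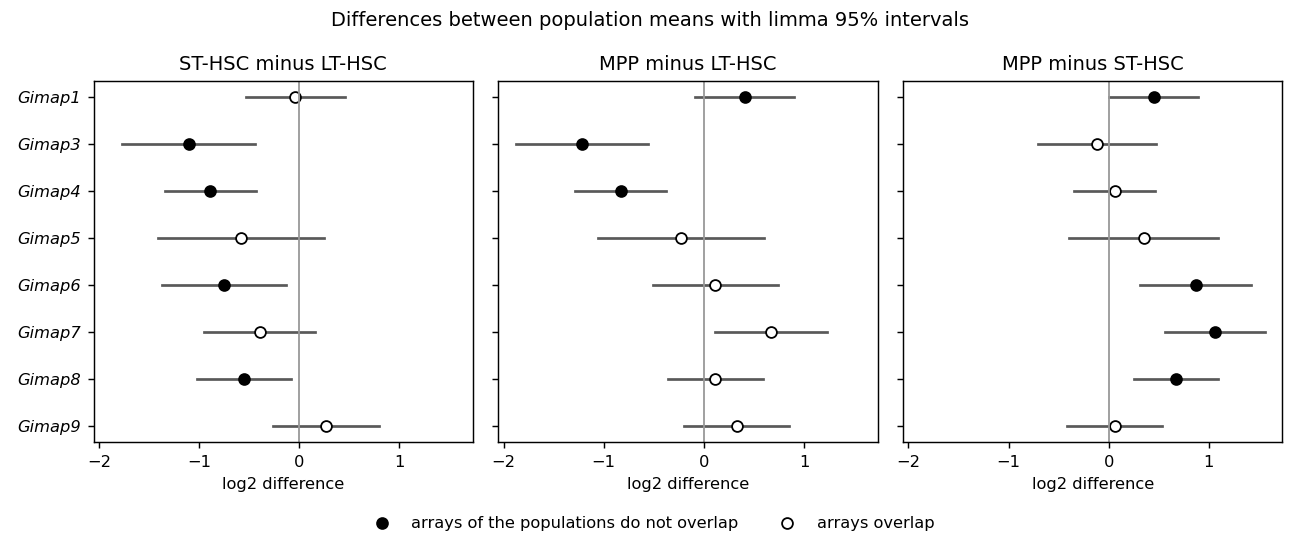
Log2 differences between population means (x axis) for each GIMAP gene (y axis) in the 3 comparisons, with limma's unadjusted 95% intervals and filled points where the arrays of the populations do not overlap. In ST-HSC minus LT-HSC 7 of 8 points lie left of 0, and in MPP minus ST-HSC 7 of 8 lie right of it.

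The gate removes mature lymphocytes, the cells in which this family is best known, so their markers were read on the same arrays. Of 14 T cell markers measured, 12 passed the filter, and their mean level was 4.82 to 4.87 in LT-HSC, 4.73 to 4.83 in ST-HSC and 4.68 to 4.81 in MPP. Cd3e and Cd3g, chains of the T cell receptor complex, averaged 3.51 and 3.46, below the filter of 3.88. On LT-HSC replicate 3, where the family was highest, they read 3.20 and 3.32. Other T cell markers went both ways there. Lat (8.98) and Cd4 (5.03) had their highest values on that array, whereas Cd6 had its lowest (4.90). Cd3d (3.95), Cd8a (4.29) and Bcl11b (4.87) lay below their own means of 4.07, 4.42 and 4.96. The mean deviation of the list was 0.04 on that array and 0.09 on LT-HSC replicate 1. Cd28 read 6.86 on LT-HSC replicate 3 and its lowest, 5.69, on ST-HSC replicate 1. The part of these markers in the GIMAP values was not tested. The mean level of 10 NK cell markers was 4.90 to 4.91, 4.80 to 5.12 and 4.82 to 5.02 in LT-HSC, ST-HSC and MPP, and 7 of the 10 passed the filter. For 10 B cell markers, 8 of which passed, it was 4.83 to 4.98, 4.64 to 4.99 and 4.64 to 4.83. Ms4a1, the CD20 gene of B cells, and Vpreb1 averaged 3.47 and 3.33, below the filter, whereas Cd79b, a chain of the B cell receptor complex, averaged 7.67.

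Endothelial cells also express GIMAP genes. Their 12 markers, which blood stem cells partly share, had a mean level of 6.31 to 6.57 in LT-HSC, 6.18 to 6.41 in ST-HSC and 6.23 to 6.33 in MPP, lowest on ST-HSC replicate 1 and highest on LT-HSC replicate 3, as was the family. Robo4 (7.08 and 5.72) and Emcn (8.64 and 7.52) were likewise highest on LT-HSC replicate 3 and lowest on ST-HSC replicate 1, and Eng was lowest on the second of these arrays (8.04). Cdh5, the cadherin of vessel walls (4.06 and 4.82), Kdr (4.93 and 5.26) and Ptprb (3.99 and 4.44) ran the other way between these arrays. Tek was highest on ST-HSC replicate 3 (7.77), and Egfl7 was lowest on LT-HSC replicate 1 (6.13). The part of these markers in the GIMAP values was not tested. None of the T cell, NK cell, B cell or endothelial markers tested was called in any comparison.

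Megakaryocyte and platelet markers had a mean level of 6.58 to 6.79 in LT-HSC, 6.97 to 7.69 in ST-HSC and 5.94 to 6.31 in MPP. Their mean was highest in ST-HSC, where that of the family was lowest, and their part in the GIMAP differences was not tested. Of the list's 9 tested genes, 8 were higher in ST-HSC than in LT-HSC by mean, with a median log2 difference of 0.71. Limma called Itga2b and Gp5, both platelet receptor chains, at 1.18 and 1.44 (limma adjusted p = 0.00814 and 0.0194). Both fell in MPP against ST-HSC, with log2 differences of -1.17 and -1.81 (limma adjusted p = 0.0141 for each), as did Pf4, a platelet chemokine (-2.0, limma adjusted p = 0.034). Vwf, the von Willebrand factor gene, fell in MPP against LT-HSC (-1.82, limma adjusted p = 0.0147), a call lost without LT-HSC replicate 1 (0.123). The calls on Itga2b and Gp5 against LT-HSC were likewise lost without it (limma adjusted p = 0.058 and 0.217). The calls in MPP against ST-HSC were lost under some alternatives, with the highest limma adjusted p at 0.0973 for Itga2b, 0.0949 for Gp5 and 0.168 for Pf4. Granulocyte markers differed between replicates of each population rather than between populations, and 0 of 14 were called in any comparison. Erythroid markers, 7 measured, averaged 7.64 to 7.84 in LT-HSC, 7.53 to 8.68 in ST-HSC and 7.14 to 8.23 in MPP, with 0 called. The megakaryocyte, granulocyte and erythroid lists each had their highest mean on ST-HSC replicate 1, where the family mean was lowest. The part of these lists in the GIMAP values was not tested.

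**Figure D3:**
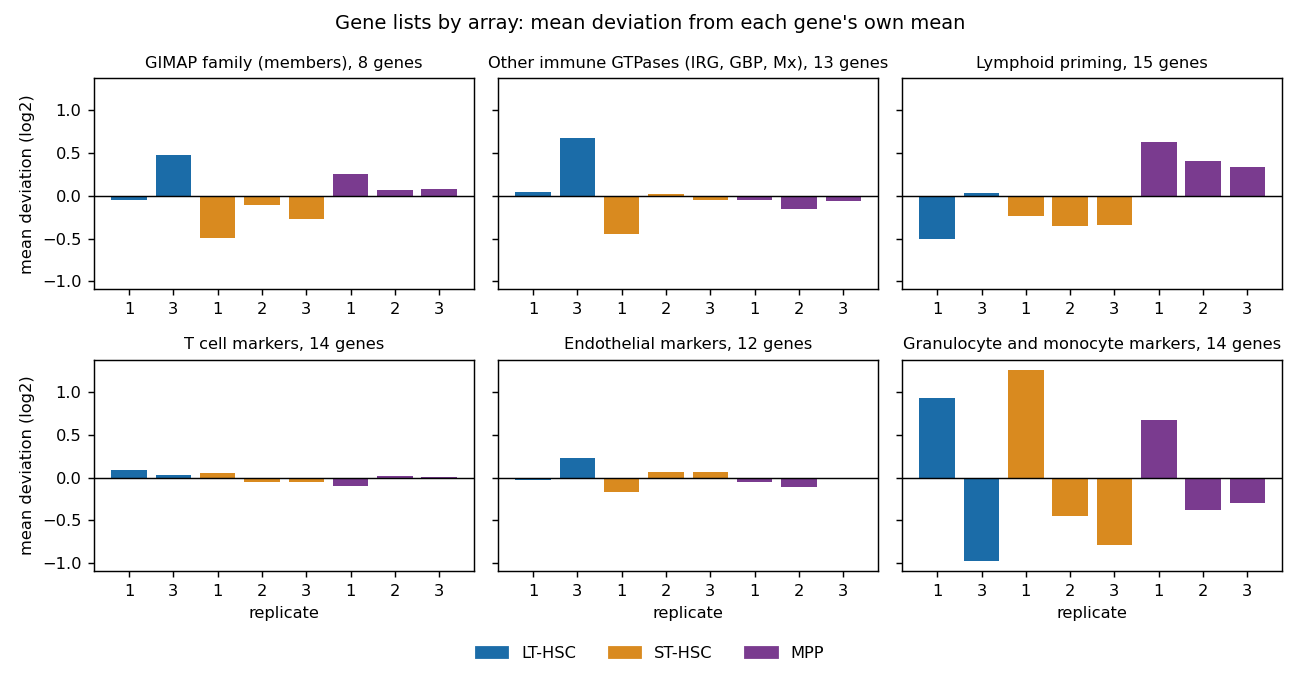
Mean deviation of each gene list from its genes' own means over the 8 arrays (y axis, log2), 1 bar per array, labelled by replicate and coloured by population. The GIMAP bars are lowest in the 3 ST-HSC arrays, T cell markers stay within 0.10 of 0, and granulocyte and monocyte markers are above 0 only on the replicate 1 arrays.

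A list of 12 tested interferon-inducible GTPases of the IRG, GBP and Mx groups, which restrict microbes inside cells, gave a comparison with another immune GTPase family. Of these 11 were lower in ST-HSC than in LT-HSC by mean, with a median of -0.31, and 9 were lower in MPP than in LT-HSC, with a median of -0.34. The guanylate-binding protein Gbp9 read 6.87 and 7.08 in LT-HSC, 5.40, 6.20 and 5.58 in ST-HSC and 5.38, 5.53 and 5.42 in MPP. Relative to LT-HSC it fell by 1.25 in ST-HSC (limma adjusted p = 0.0318) and by 1.53 in MPP (limma adjusted p = 0.0361). Each of these calls held in 9 of 18 alternatives, with limma adjusted p from 0.00189 to 0.345 and from 0.00226 to 0.237, and both were lost without LT-HSC replicate 1 (0.155 and 0.134). Gbp9 thus had the order of levels seen for Gimap3. Members not called with the highest signal were Iigp1 (-0.71 and -0.84) and Gbp7 (-0.14 and -0.33). For MPP minus ST-HSC 6 of 12 were higher and 6 lower, with a median of -0.02, beside 7 of 8 higher for the GIMAP genes. The difference between the families was not tested.

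Of 14 tested lymphoid priming genes, which prepare progenitors for T and B cell fates, 11 were higher in MPP than in ST-HSC, with a median of 0.52. The chromatin organiser Satb1 and the T cell signalling gene Tespa1 rose, by 1.75 and 1.88 (limma adjusted p = 0.0141 and 0.0322). Satb1 kept its call in 14 and Tespa1 in 10 of 19 alternatives, with limma adjusted p of 0.000117 to 0.0853 and 0.000417 to 0.172. The highest came without ST-HSC replicate 3 for Satb1 and without MPP replicate 3 for Tespa1. The most highly expressed members that were not called were Mef2c (0.45) and Sox4 (0.97), both transcription factors. Flt3, named after its values were seen, had the list's largest difference (2.49, limma adjusted p = 0.0893). It read 5.84 and 8.49 in LT-HSC, 7.19, 7.17 and 6.86 in ST-HSC and 9.80, 9.43 and 9.45 in MPP. The list's mean deviation was -0.51 on LT-HSC replicate 1 and 0.04 on LT-HSC replicate 3, above all ST-HSC arrays. Its part in the GIMAP values was not tested. In ST-HSC minus LT-HSC the list's median was -0.10, or 0.01 with median centring, and 0 of 14 were called in either comparison with LT-HSC. Without LT-HSC replicate 3, 5 of 14 were called higher in MPP than in LT-HSC and 1 higher in ST-HSC than in LT-HSC, where 615 and 825 of all 17576 genes were called in either direction.

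Proteins that GIMAP proteins are known to bind or act beside, namely BCL2 family members, the chaperone Hspa8, the kinase Gsk3b and autophagy proteins of the GABARAP and LC3 groups, formed a list of 12 tested genes. Limma called 0 of 12 in each comparison, with 2, 3 and 2 at an unadjusted p under 0.05 for ST-HSC minus LT-HSC, MPP minus LT-HSC and MPP minus ST-HSC. Of all 17576 genes, 1943, 1856 and 1211 had such a p in the same order. The medians were 0.25, 0.18 and 0.07. The most highly expressed were Hspa8, at 0.01, -0.02 and -0.02 in these comparisons, and Gabarap, at 0.05, 0.14 and 0.09. Bcl2l11, which encodes the death-promoting BIM, read 4.94 and 6.25 in LT-HSC, 6.19, 6.39 and 6.03 in ST-HSC and 7.13, 7.53 and 6.73 in MPP. It was chosen after its values were seen, as the list's largest difference (1.54 for MPP minus LT-HSC, limma adjusted p = 0.164). Every MPP array exceeded every other array.

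Genes next to the cluster were not called. The largest difference among those shown beside it was that of the predicted gene Gm5111, which lay outside the list counted here and was named after its values were seen. Gm5111 read 5.98 and 7.70 in LT-HSC, 6.29, 7.24 and 7.40 in ST-HSC and 8.44, 8.13 and 8.32 in MPP. Every MPP array exceeded every other array, with the MPP mean 1.46 above that of LT-HSC (limma adjusted p = 0.291) and 1.32 above that of ST-HSC (limma adjusted p = 0.304). Both exceeded the highest GIMAP difference. On one side Zfp775 and Repin1, both zinc finger genes, had ST-HSC minus LT-HSC values of -0.16 and -0.14 and MPP minus ST-HSC values of 0.15 and 0.29. On the other side Tmem176b and Tmem176a, which encode membrane channels of immune cells, differed by -0.35 and -0.24 and by 0.28 and 0.50. The list of 11 tested genes was set by name and does not hold Gm5111. It holds Zfp467, Sspo, Kcnh2, Nos3, Abcb8 and Atg9b, which are not among the genes shown beside the cluster. It leaves out Atp6v0e2, Doxl1 and Doxl2, which are. The list therefore does not describe neighbours alone. Among its 11 tested genes, limma called 0 in each comparison, with 0 at an unadjusted p under 0.05. Their median ST-HSC minus LT-HSC difference was -0.12 and their median MPP minus ST-HSC difference 0.15. The first was -0.01 with median centring, and the second turned to -0.03 without both LT-HSC and ST-HSC replicate 1. Whether the members differ from their neighbours was not tested.

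**Figure D4:**
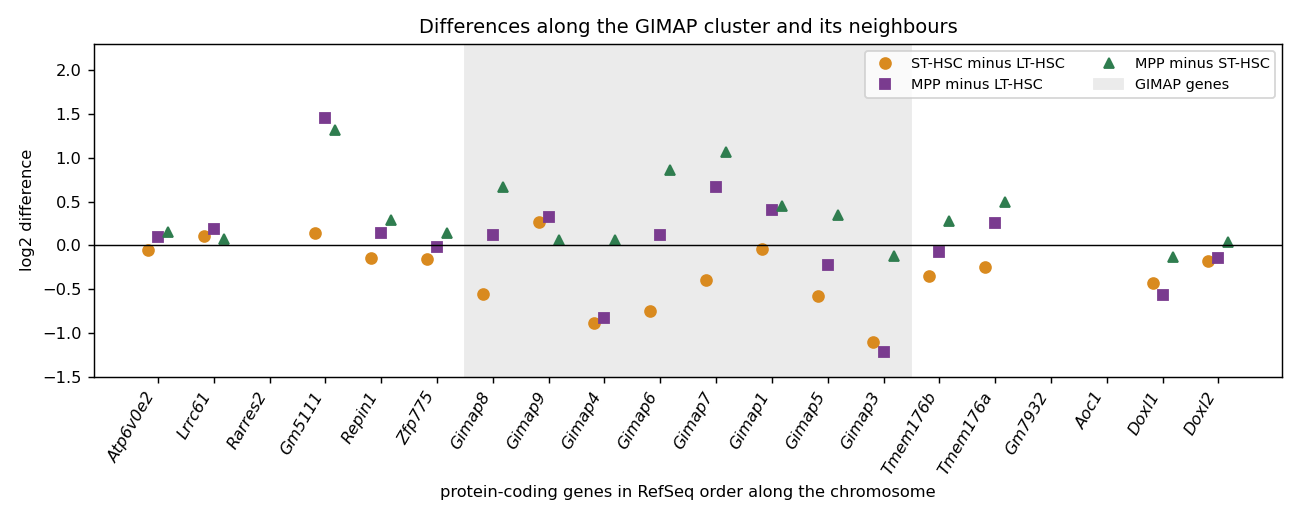
Log2 differences (y axis) of protein-coding genes in RefSeq order along the chromosome (x axis, not to scale), with the 8 GIMAP genes shaded and up to 6 neighbours on each side. A gap marks a gene with no value. Gimap3, at one end of the cluster, has the most negative differences shown, -1.10 and -1.22 against LT-HSC, and Gimap7 the highest GIMAP value, 1.06 for MPP minus ST-HSC, while Gm5111 outside the cluster reaches 1.46.

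Other genes with like profiles were sought by Pearson r over the 8 arrays, as a description without a test. Arrays share depth and quality across genes, and the highest of 17576 values is high by selection. The genes most like the family's mean profile were Bace1 (r = 0.96), Cyp27a1 (0.96), Ikbke (0.96), Trim30d (0.96) and Hoxa2 (0.95). Bace1, the beta-secretase gene, read 6.97 and 7.50 in LT-HSC, 6.71, 6.88 and 6.88 in ST-HSC and 7.39, 7.09 and 7.23 in MPP, so it too was lowest in ST-HSC. Limma called 0 of these 5 in any comparison. By single member, the most alike gene among those searched was Zdhhc18 for Gimap1 (r = 0.99), Fbp2 for Gimap3 (0.96), Shisa9 for Gimap4 (0.94) and Smarca2 for Gimap5 (0.99). For Gimap6, Gimap7, Gimap8 and Gimap9 it was Plcb2 (0.98), Rasa4 (0.99), Tcp11l2 (0.97) and Atxn7l3 (0.99). The 8 members thus had 8 different nearest genes among those searched.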

How the data were processed

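Per the labels' protocols, Trizol RNA was amplified (Ovation Pico WTA V2 kit) and given a biotin label for 1-colour arrays. The deposited values are taken as log2 signals made by the authors with RMA, per the submitters' processing notes. Its version, software and genome build are not given in the sources used here, and that the scale is log2 rests on the range of the values. Amplification can add spread and RMA compresses differences of dim probe sets. The number of arrays limits precision. No raw signal was analysed here.

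Genes were named from the platform annotation (23521 of 33649 probe sets with 1 symbol, 1814 with several, 8314 unnamed here). The probe set with the highest mean stood for a gene, and genes entered the tests when that mean reached the 25th percentile of probe sets, 3.88. A linear model over all 8 arrays with 1 mean per population was fitted in limma 3.58.1 under R 4.3.3 (residual df 5, prior df 5.93), without a block. Benjamini-Hochberg adjustment ran over 17576 genes, and genes were called at an adjusted p under 0.05. The fit was tested on simulated data. Alternatives left out arrays, added the replicate block or array weights, used only the populations compared, and changed scaling, filter, probe set choice and prior.

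Same-numbered ST-HSC and MPP arrays had correlated deviations from their group means (r = 0.15, 0.23 and 0.21 for replicates 1, 2 and 3). A block on the number was therefore run as an alternative. The labels do not state that the numbers pair arrays, and these r values come from the data tested. For LT-HSC the values were 0.54 and 0.47 with ST-HSC and -0.16 and 0.10 with MPP, over 2 numbers only, and no pairing was taken. The members, lists and naming rule were chosen with earlier results of these data known. The rule named all members, called members of each list (at most 6) with the 2 brightest others, and the nearest genes by Pearson r. Marker lists, including one of LT-HSC and gate genes of which Slamf1, Cd34 and Cd48 are given, served as checks. RefSeq tables (GRCm38.p6) gave cluster order and promoter windows, and all 8 members matched by symbol and gene ID.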

Additional observations from a re-analysis of the deposited data

How the results depend on the processing

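Counts of called genes moved with single libraries. Leaving out 1 array at a time gave 17 (without LT-HSC replicate 1) to 825 (without LT-HSC replicate 3) called genes for ST-HSC minus LT-HSC, against 164. It gave 6 (without MPP replicate 3) to 615 (without LT-HSC replicate 3) for MPP minus LT-HSC, against 22, and 1 (without ST-HSC replicate 3) to 71 for MPP minus ST-HSC, against 34. Limma called 0 of 8 GIMAP genes in each of these. Without LT-HSC replicate 1 and ST-HSC replicate 1 together, 78 genes were called for MPP minus ST-HSC and 0 for ST-HSC minus LT-HSC. With only the populations compared the counts were 71 for MPP minus ST-HSC and 100 for ST-HSC minus LT-HSC. Median centring gave 104, 5 and 1 in the order ST-HSC minus LT-HSC, MPP minus LT-HSC and MPP minus ST-HSC, and shifted the median of all genes by 0.11, 0.12 and 0.01. For MPP minus ST-HSC the split was 12 higher and 22 lower, or 0 and 1 after centring. Quantile normalization gave 37 genes for MPP minus LT-HSC and called 1 GIMAP gene, Gimap4, in the comparison of ST-HSC with LT-HSC (-0.95, limma adjusted p = 0.0404). The number of all genes called in that second comparison with this setting is not given here. Array weights gave 61, 9 and 525 genes in the order used for median centring, called 3 GIMAP genes for MPP minus ST-HSC (Gimap6, Gimap7 and Gimap8) and 1 by the F test. The F test's count over all genes with weights is not given here. The cause was not tested.

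With the replicate block over all 8 arrays, 157 genes were called for MPP minus LT-HSC and 473 for ST-HSC minus LT-HSC. For MPP minus ST-HSC it called 267, or 289 with the arrays of these populations alone. The block called 2 GIMAP genes for ST-HSC minus LT-HSC, Gimap3 (-1.19, limma adjusted p = 0.011) and Gimap4 (-0.92, 0.0425). It called 1 for MPP minus LT-HSC, Gimap3 (-1.30, 0.0212), 1 for MPP minus ST-HSC in either version, Gimap7, and 3 by the F test. Without the block the F test called 159 of 17576 genes, and its count over all genes with the block is not given here. The numbers were not taken to pair LT-HSC arrays.

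Direction turned for small differences. For ST-HSC minus LT-HSC, leaving out 1 array gave -0.27 to 0.19 for Gimap1, -1.23 to 0.075 for Gimap5 and -0.13 to 0.67 for Gimap9. Gimap1 was 0.070 with centring and 0.058 with weights. For MPP minus LT-HSC the ranges were -0.88 to 0.43 for Gimap5, -0.12 to 0.35 for Gimap6, -0.14 to 0.37 for Gimap8 and -0.074 to 0.73 for Gimap9. With quantile normalization Gimap6 and Gimap8 were at -0.019 and -0.021. For MPP minus ST-HSC the ranges over arrays left out were -0.45 to 0.13 for Gimap3, -0.084 to 0.20 for Gimap4 and -0.042 to 0.16 for Gimap9, and Gimap4 was -0.085 with weights. Without LT-HSC and ST-HSC replicate 1 together, Gimap9 was -0.014 for MPP minus ST-HSC, -0.074 for MPP minus LT-HSC and -0.059 for ST-HSC minus LT-HSC. Gimap6 and Gimap8 were then -0.12 and -0.14 for MPP minus LT-HSC, and Gimap3 was 0.13 for MPP minus ST-HSC. The cause was not tested.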
